A study of Mus musculus with 12 samples.

Results

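A panel of 10 genes that mark T cells, regulatory T cells and natural killer (NK) cells was followed in the mouse endometrium after mating: Cd3e, Cd3d, Cd3g, Cd4, Cd8a, Foxp3, Il2ra, Ctla4, Ncr1 and Prf1. The 10 genes were chosen by name, out of 19938 genes that the array annotation names without ambiguity, and each was represented by its transcript cluster, the set of array probes that reads 1 gene, with exactly that symbol. All 10 had 1 such cluster and none shared a cluster with a second gene. The endometrium came from CBAF1 females, the F1 offspring of CBA and C57Bl/6 mice, in 3 groups: intact-mated females, mated 8 h earlier to an intact BALB/c male, whose ejaculate holds sperm and seminal plasma; vasectomized-mated females, mated 8 h earlier to a vasectomized BALB/c male, whose ejaculate lacks sperm and any other contribution of the testis and epididymis; and unmated controls. The controls are labelled virgin estrus females, while the design text places their collection in the evening of pro-estrus. Mated females were caged with males late in the night of pro-estrus and collected 8 h after mating. Mating, the clock time of collection and the time within the cycle thus differ together between controls and mated females. Each group had 4 Affymetrix Mouse Gene 1.0 ST arrays, and each array held the RNA of 4 females pooled, 16 females a group. The comparisons ask whether T and NK cell transcripts in the uterine lining change soon after mating. They also ask whether these transcripts differ between mating with an intact and with a vasectomized male.

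T cells recognise antigen through the T cell receptor, which signals through the CD3 chains, and the coreceptors CD4 and CD8 divide them into helper and cytotoxic cells. Regulatory T cells are CD4+ cells that express the transcription factor FOXP3 and hold other immune cells in check. NK cells kill without prior antigen contact, and together with regulatory T cells they are known residents of the uterus, where both take part in the tolerance of a pregnancy that carries paternal antigens.

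Values are log2 signals, so that a difference of 1 is a doubling in signal. The midpoint of the array, the median over all 35556 transcript clusters of their mean over the 12 arrays, lay at 7.28, and a cluster with a mean below it was taken as dim. Of the 10 genes 9 were dim, with Cd3e, at a mean of 7.39, the exception and Prf1, at 7.16, just below the limit. Of the 120 single values 10 reached the limit, 8 for Cd3e and 2 for Prf1. In dim clusters nonspecific signal can make up much of the value, which compresses fold-changes. Whole endometrium was measured, and in such bulk RNA fewer cells of a type and less RNA per cell cannot be told apart. Arrays of the same group correlated at 0.983 to 0.994 across all clusters. All 9 measured epithelial markers (among them Krt8) and all 11 stromal markers (among them Vim) were above the limit, so that the labelled tissue had its markers. The control arrays stood apart from each other: signal summed over the 11 stromal markers was 21034 and 18401 in control arrays 1 and 2, against 11483 and 11383 in control arrays 3 and 4, and list genes whose calls changed with the pair of controls are named below. The labels do not give these pairs, which were formed with the values of the same arrays known. Adjusted p against 1 pair alone therefore only describes how calls depend on the controls. No share over all clusters is given beside such calls.

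None of the 10 genes was called higher or lower in any of the 3 comparisons, a call being an adjusted p of at most 0.05 (limma, Benjamini-Hochberg over all clusters) joined to a fold-change of 1.5 or more. Of all clusters, 3.49% were called in intact-mated females against controls, 1.43% in vasectomized-mated females against controls and 0.796% in intact-mated against vasectomized-mated females. Among dim clusters with 1 gene the shares were 2.35%, 0.606% and 0.394%, so that a count of 0 among 10 mostly dim genes is near the background. Without a fold threshold, adjusted p was at most 0.05 for 0 of the 10 genes in intact-mated females against controls, where 10.1% of clusters passed, for 0 in vasectomized-mated females against controls, where 4.07% passed, and for 1, Cd3e, in intact-mated against vasectomized-mated females, where 2.34% passed. At an unadjusted p under 0.05 the counts were 3 (Cd3d, Cd3e and Il2ra), 1 (Cd4) and 1 (Cd3e) in the same order, beside 23%, 18.9% and 17.2% of all clusters. A plain linear model without moderation called 0 of the 10 in every comparison. Without the fold threshold, its adjusted p for Cd3e was 0.0364 in intact-mated females against controls and 0.0424 against vasectomized-mated females.

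The intervals say how large a change could have been. In all 30 tests the 95% interval of the log2 fold-change lay within ±0.58, the size of a 1.5-fold change, with -0.44 as the lowest bound (Ncr1, intact-mated against control) and 0.41 as the highest (Cd3e, intact-mated against vasectomized-mated). The largest estimate was 1.21-fold. These bounds apply to array signal, which in dim clusters can understate a change in RNA by an amount that was not measured. The median absolute log2 fold-change of the 10 genes was 0.11 in intact-mated females against controls, 0.07 in vasectomized-mated females against controls and 0.10 between the mated groups, against 0.11, 0.10 and 0.10 over all clusters. Both comparisons with controls share the same 4 control arrays.

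**Figure D1:**
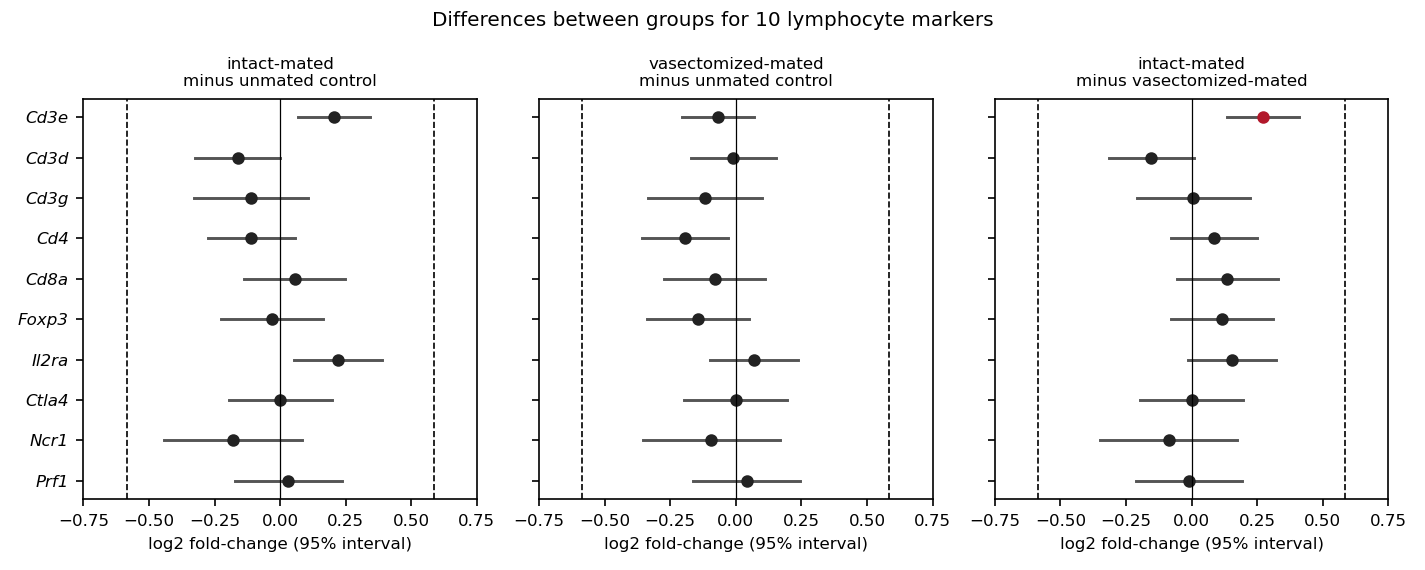
Log2 fold-change (x axis) of the 10 genes (rows) in 3 comparisons, as estimates (points) with 95% intervals (lines); dashed lines mark a 1.5-fold change and red marks an adjusted p of at most 0.05. All 30 intervals lie between the dashed lines, and Cd3e in intact-mated against vasectomized-mated females is the 1 red point.

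The CD3 chains are the part of the receptor that every T cell carries. CD3-epsilon pairs with either CD3-delta or CD3-gamma, and their genes lie side by side, within 40092 bases of chromosome 9, with 1337 bases between Cd3g and Cd3d. For each gene the 250 bases before the start that the RefSeq table of start regions uses are shown because these neighbouring genes gave different values below. They are RefSeq sequence of build GRCm38.p6, written 5′ to 3′ on the strand of the gene: Cd3e at chr9:45009612-45009861 on the minus strand, Cd3d at chr9:44981536-44981785 on the plus strand and Cd3g at chr9:44980432-44980681 on the minus strand. The last 52 bases of the Cd3e window and the last 17 of the Cd3d window lie inside the RefSeq spans of these genes, and the Cd3g window lies outside. Capitals mark matches, on either strand, to the ETS core CTTCCT or the GATA motif AGATAA, the binding letters of families that include T cell factors such as ETS1 and GATA3.
Cd3e: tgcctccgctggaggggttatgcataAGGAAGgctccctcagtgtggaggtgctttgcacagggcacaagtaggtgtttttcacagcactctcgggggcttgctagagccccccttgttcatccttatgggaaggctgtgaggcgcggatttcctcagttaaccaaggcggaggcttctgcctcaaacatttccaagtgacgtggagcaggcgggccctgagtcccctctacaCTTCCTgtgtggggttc
Cd3d: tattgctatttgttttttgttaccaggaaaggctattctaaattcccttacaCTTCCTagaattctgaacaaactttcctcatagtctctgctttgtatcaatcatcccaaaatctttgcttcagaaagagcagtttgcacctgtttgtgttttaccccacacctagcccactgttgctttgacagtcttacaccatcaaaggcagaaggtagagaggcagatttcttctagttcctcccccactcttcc
Cd3g: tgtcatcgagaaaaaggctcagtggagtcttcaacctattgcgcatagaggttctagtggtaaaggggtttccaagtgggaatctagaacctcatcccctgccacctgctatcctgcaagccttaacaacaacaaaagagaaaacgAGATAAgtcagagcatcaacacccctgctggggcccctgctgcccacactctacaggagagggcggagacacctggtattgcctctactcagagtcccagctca
The ETS core occurred at 2 places in the Cd3e window, 1 of them inside the gene span, and at 1 in the Cd3d window, and the GATA motif at 1 in the Cd3g window. Of 32851 such regions 29.5% held the ETS core and 9.99% the GATA motif. An E-box (CAGCTG, in 13.0% of regions) and a TATA box (TATAAA, in 12.4%) were also searched, and neither stood in the 3 windows. The matches are letters in a window and were not tested against the values.

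Cd3e, the epsilon chain, had log2 signals of 7.52, 7.54, 7.47 and 7.68 in intact-mated pools, 7.26, 7.27, 7.24 and 7.35 in vasectomized-mated pools, and 7.35, 7.26, 7.42 and 7.36 in unmated controls. All 4 intact-mated pools lay above every pool of the other groups, which overlapped each other. The mean was 7.55 ± 0.09 in intact-mated females, 7.28 ± 0.05 in vasectomized-mated females and 7.35 ± 0.07 in controls (SD, n = 4 each). The log2 fold-change in intact-mated against vasectomized-mated females was 0.27 (SE 0.06, 95% interval 0.14 to 0.41, 1.21-fold, adjusted p = 0.0458), past the p threshold and short of the 1.5-fold one. Against controls it was 0.21 in intact-mated females (SE 0.06, adjusted p = 0.0600, and 0.0364 in the plain model) and -0.07 in vasectomized-mated females (adjusted p = 0.626). The p threshold was not held throughout: leaving out 1 array at a time, adjusted p for intact-mated against vasectomized-mated ran between 0.0364 and 0.135 and exceeded 0.05 without 10 of the 12 arrays, each of the 8 mated ones among them.

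Cd3d, the delta chain, had log2 signals of 5.61, 5.57, 5.40 and 5.52 in intact-mated pools, 5.67, 5.70, 5.67 and 5.68 in vasectomized-mated pools, and 5.69, 5.50, 5.75 and 5.81 in controls. Here the intact-mated pools were all below the vasectomized-mated pools, which agreed to an SD of 0.0122, while control array 2 fell among the intact-mated pools. The log2 fold-change was -0.15 in intact-mated against vasectomized-mated females (SE 0.07, adjusted p = 0.316), -0.16 in intact-mated females against controls (adjusted p = 0.212) and -0.01 in vasectomized-mated females against controls (adjusted p = 0.965). The estimates for Cd3d and Cd3e thus had opposite signs in both comparisons with intact-mated females, and their difference was not tested. Cd3g, the gamma chain, had 5.58, 5.70, 5.38 and 5.38 in intact-mated pools, 5.49, 5.45, 5.62 and 5.47 in vasectomized-mated pools, and 5.82, 5.50, 5.72 and 5.44 in controls. The 3 groups overlapped, with log2 fold-changes of -0.11, -0.12 and 0.01 in intact-mated against control, vasectomized-mated against control and intact-mated against vasectomized-mated females (adjusted p = 0.584, 0.582 and 0.983).

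**Figure D2:**
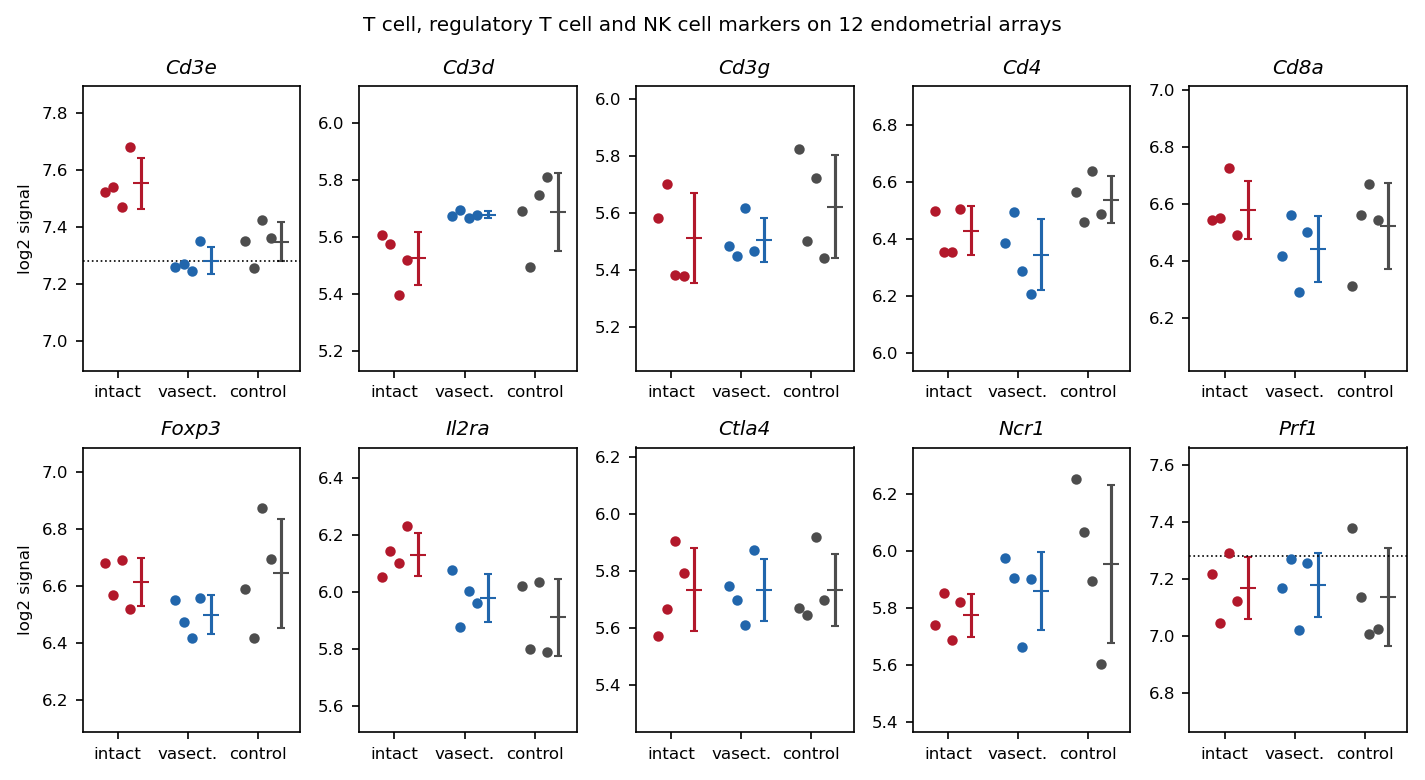
Log2 signal (y axis, spanning 1 unit in every panel) of the 10 genes on 12 arrays, with intact-mated (red), vasectomized-mated (blue) and unmated control (grey) pools as points in the order of their numbers, and the mean ± SD of each group beside them (n = 4). The dotted line is the dim limit of 7.28, drawn where it falls in range; the 4 intact-mated pools of Cd3e, at 7.47 to 7.68, lie above all other pools, while most other panels show groups that overlap.

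Of the 10 genes, the groups did not overlap for 2 in intact-mated females against controls (Cd3e and Il2ra, both higher), for 0 in vasectomized-mated females against controls, and for 2 in intact-mated against vasectomized-mated females (Cd3e higher and Cd3d lower). Over all clusters the share without overlap was 14.2%, 10.7% and 14.0%, so that the counts of the 10 genes were near the background.

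Of the coreceptors, Cd4, which marks helper and regulatory T cells and in mice also some dendritic cells, had log2 signals of 6.50, 6.36, 6.36 and 6.51 in intact-mated pools, 6.39, 6.50, 6.29 and 6.21 in vasectomized-mated pools, and 6.57, 6.46, 6.64 and 6.49 in controls. Vasectomized-mated pools tended to lie low, with 1 of them among the controls. The log2 fold-change was -0.19 in vasectomized-mated females against controls (SE 0.08, adjusted p = 0.191), -0.11 in intact-mated females against controls (adjusted p = 0.450) and 0.08 between the mated groups (adjusted p = 0.623). Cd8a, the alpha chain of CD8 on cytotoxic T cells, had 6.55, 6.55, 6.73 and 6.49 in intact-mated pools, 6.42, 6.56, 6.29 and 6.50 in vasectomized-mated pools, and 6.31, 6.56, 6.67 and 6.55 in controls. The controls spanned most of the range of both mated groups, and the log2 fold-changes were 0.05 in intact-mated females against controls, -0.08 in vasectomized-mated females against controls and 0.14 between the mated groups (adjusted p = 0.790, 0.686 and 0.473).

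Among the regulatory T cell genes, Foxp3, the factor that fixes the identity of these cells, had log2 signals of 6.68, 6.57, 6.69 and 6.52 in intact-mated pools, 6.55, 6.47, 6.42 and 6.56 in vasectomized-mated pools, and 6.59, 6.42, 6.88 and 6.70 in controls. The controls held both the top value and nearly the bottom one. The log2 fold-change of Foxp3 was -0.03 in intact-mated females against controls (95% interval -0.22 to 0.16, adjusted p = 0.898), -0.15 in vasectomized-mated females against controls (adjusted p = 0.425) and 0.12 between the mated groups (adjusted p = 0.560). With control arrays 1 and 2 alone the first of these was 0.11 and the second -0.01, and with control arrays 3 and 4 alone they were -0.17 and -0.28.

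Il2ra encodes CD25, the alpha chain of the interleukin-2 receptor, which regulatory T cells carry at rest and other T cells after activation. It had log2 signals of 6.05, 6.14, 6.10 and 6.23 in intact-mated pools, 6.08, 5.87, 6.001 and 5.96 in vasectomized-mated pools, and 6.02, 5.80, 6.03 and 5.79 in controls. Every intact-mated pool lay above every control, and vasectomized-mated pools overlapped both. The log2 fold-change was 0.22 in intact-mated females against controls (SE 0.08, 95% interval 0.05 to 0.39, adjusted p = 0.0985), 0.07 in vasectomized-mated females against controls (adjusted p = 0.699) and 0.15 between the mated groups (adjusted p = 0.339). Ctla4, an inhibitory receptor that competes with CD28 for its ligands, had 5.57, 5.67, 5.91 and 5.79 in intact-mated pools, 5.75, 5.70, 5.61 and 5.87 in vasectomized-mated pools, and 5.67, 5.65, 5.92 and 5.70 in controls. Its mean was 5.73 in each of the 3 groups (SD 0.15, 0.11 and 0.13), and all 3 intervals ran from -0.20 to 0.20.

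Of the NK cell genes, Ncr1, the activating receptor NKp46, had log2 signals of 5.74, 5.85, 5.69 and 5.82 in intact-mated pools, 5.98, 5.91, 5.66 and 5.90 in vasectomized-mated pools, and 6.25, 6.07, 5.89 and 5.60 in controls. Control arrays 1 and 2 were the top pair of the 12 and control array 4 the bottom one, giving the controls an SD of 0.28, the widest of the 30 groups. The log2 fold-change of Ncr1 was -0.18 in intact-mated females against controls (SE 0.12, adjusted p = 0.430), -0.09 in vasectomized-mated females against controls (adjusted p = 0.740) and -0.09 between the mated groups (adjusted p = 0.773). Against control arrays 1 and 2 alone the values were -0.39 in intact-mated and -0.30 in vasectomized-mated females, and against control arrays 3 and 4 alone 0.03 and 0.11. Prf1, perforin, the pore-forming protein of cytotoxic granules in NK cells and cytotoxic T cells, had 7.22, 7.04, 7.29 and 7.12 in intact-mated pools, 7.17, 7.27, 7.02 and 7.26 in vasectomized-mated pools, and 7.38, 7.14, 7.01 and 7.03 in controls. Its groups overlapped, with log2 fold-changes of 0.03, 0.04 and -0.01 in intact-mated against control, vasectomized-mated against control and intact-mated against vasectomized-mated females (adjusted p = 0.897, 0.862 and 0.973). Control array 1 was the top array for both NK cell genes, and it also had the top summed stromal signal. The part of tissue make-up in these values was not tested.

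The variation from pool to pool was also compared between genes. Over the 12 arrays, after the group means were removed, Pearson r between the 45 pairs of these genes ran from -0.47 to 0.60 with a median of 0.10, and 28 were positive. Cd3d and Cd3e had r = 0.51, Cd3d and Cd3g 0.30 and Cd3e and Cd3g -0.00, although their products are parts of 1 complex. Foxp3 had r = 0.58 with Ctla4, 0.25 with Il2ra and 0.24 with Cd4. Ncr1 and Prf1 had r = 0.60, as had Cd8a and Ctla4, which do not mark 1 cell type. The median r of the 10 genes with all clusters of 1 gene was 0.03, and the median absolute r was 0.28 within the 10 genes, against 0.29 with all clusters of 1 gene. These are descriptions over 12 pools that share group means, RNA preparations and arrays.

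**Figure D3:**
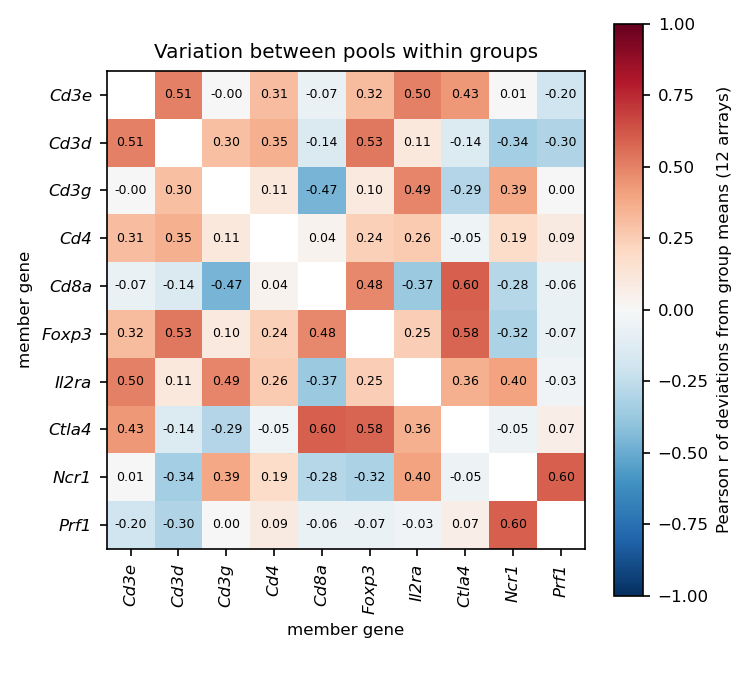
Pearson r (colour and figures in the cells) between each pair of the 10 genes for deviations of log2 signal from the group mean over 12 arrays; rows and columns are genes. Values run from -0.47 (Cd3g with Cd8a) to 0.60 (Cd8a with Ctla4, Ncr1 with Prf1), and the 3 CD3 genes at the top left have 0.51, 0.30 and -0.00.

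Among 10798 genes above the dim limit, those whose log2 values over the 12 arrays were most like Cd3e were Zfhx2 (r = 0.91), Pmvk (r = 0.90) and Cdk18 (r = 0.89). For deviations from the group means they were Rpl27a (r = 0.95), Prkra (r = 0.93) and Terc (r = 0.92). No gene appeared in both sets of 3. These are the highest r among 10798 genes over only 12 arrays, and no chance level was set for them. Dim genes, among them most T cell genes listed here, were not searched.

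The wider machinery of T cells also gave no call. Of 26 listed genes of the T cell receptor complex and its signalling 23 were measured, 20 of them dim, and 0 were called in any comparison. At an unadjusted p under 0.05 there were 1, 0 and 1 in intact-mated against control, vasectomized-mated against control and intact-mated against vasectomized-mated females, and the plain model also called 0. The gene was Cd5 both times, a surface receptor that dampens T cell receptor signals, with 7.18, 6.99, 7.24 and 7.21 in intact-mated pools, 6.84, 6.93, 6.75 and 6.86 in vasectomized-mated pools, and 6.69, 6.63, 6.88 and 6.70 in controls. Like Cd3e, Cd5 had all 4 intact-mated pools above the rest, with a log2 fold-change of 0.43 in intact-mated females against controls (SE 0.08, adjusted p = 0.0032), below 1.5-fold, and 0.31 against vasectomized-mated females (adjusted p = 0.0556). Lef1, a transcription factor of T cells and of other tissues, had -0.31 in intact-mated females against controls (SE 0.23, adjusted p = 0.496), with control arrays 1 and 2 at 7.44 and 8.03 and control arrays 3 and 4 at 6.83 and 6.73. Against control arrays 1 and 2 alone it was called lower in both mated groups (-0.79, adjusted p = 0.0186 in intact-mated, and -0.76, adjusted p = 0.0425 in vasectomized-mated females).

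For the lists that follow, 1.95% of all clusters were called higher and 1.55% lower in intact-mated females against controls, 0.987% higher and 0.439% lower in vasectomized-mated females against controls, and 0.394% higher and 0.402% lower in intact-mated against vasectomized-mated females. Of 25 measured regulatory T cell genes other than the 10, 2 rose and 1 fell in intact-mated females and 0 rose and 1 fell in vasectomized-mated females, both against controls, and 0 were called between the mated groups (up to 2 under alternatives, where Tgfb1, or Tnfrsf9 and Ccr4, passed). Gpr83, a receptor found on regulatory T cells and elsewhere, fell by 0.87 on the log2 scale in intact-mated females (SE 0.10, adjusted p = 0.000198) and by 0.83 in vasectomized-mated females (adjusted p = 0.00132). Tnfrsf9, the costimulatory receptor CD137, rose by 0.61 in intact-mated females (SE 0.08, adjusted p = 0.00042), with 7.58 to 7.84 against 6.99 to 7.28 in controls. Tgfb1, the cytokine TGF-β1, which many cell types make, rose by 0.80 in intact-mated females (SE 0.16, adjusted p = 0.00803). Against control arrays 1 and 2 alone neither Tnfrsf9 nor Tgfb1 was called in intact-mated females, and Nrp1, Entpd1 and Satb1 were called lower beside Gpr83 (log2 fold-changes -1.02, -1.196 and -0.80), with Entpd1 also lower in vasectomized-mated females (-1.10). Against control arrays 3 and 4 alone Nt5e, the enzyme CD73, was called higher in intact-mated (1.396, adjusted p = 0.00416) and in vasectomized-mated females (1.44, adjusted p = 0.00708). Tnfrsf9 also lost its call, by fold, without control array 4 or intact-mated array 4 (lowest value 0.57).

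Of 35 measured NK cell receptors and regulators 3 rose in intact-mated females and 2 in vasectomized-mated females against controls, and none fell. They were Itga2, the collagen-binding integrin CD49b of NK cells, platelets and epithelium (log2 fold-change 1.21, SE 0.09, adjusted p = 5.47e-06 in intact-mated, and 0.75, adjusted p = 0.000828 in vasectomized-mated females), Ncam1, an adhesion molecule of nerve and of human NK cells (0.65, adjusted p = 0.0101, and 0.87, adjusted p = 0.00441), and Nfil3, a transcription factor that NK cells need to develop (0.65, adjusted p = 0.00519 in intact-mated females, with control array 3 at 8.73 and the other controls at 8.26 to 8.34). Itga2 and Ncam1 have known expression outside lymphocytes, and the receptors of the Klr families, which are more restricted to NK cells, were not called against all 4 controls. Against control arrays 1 and 2 alone, Klrd1, Klra8, Il2rb and Cd7 were called lower in intact-mated females (-0.66, -0.64, -0.75 and -0.65, adjusted p = 0.00891, 0.0213, 0.0439 and 0.0115), and Cd7 also in vasectomized-mated females (-0.68). Against control arrays 3 and 4 alone none of the 4 was called, Prdm1 was called higher in intact-mated females (0.64, adjusted p = 0.0141) and Id2 in vasectomized-mated females (0.59, adjusted p = 0.00678). Of 21 genes of cytotoxic granules and death ligands, Srgn, the granule proteoglycan of most blood cells, rose in intact-mated females (0.74, SE 0.17, adjusted p = 0.0173) and Tnfsf10, the death ligand TRAIL, rose in both mated groups (0.68, adjusted p = 0.000429 in intact-mated, and 0.69, adjusted p = 0.0015 in vasectomized-mated females). No granzyme was called against all 4 controls, and Gzmb, granzyme B, was called higher in vasectomized-mated females against control arrays 3 and 4 alone (0.81, adjusted p = 0.0195).

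Of 33 measured cytokines and receptors of T and NK cells 3 rose in intact-mated females against controls, 0 were called in vasectomized-mated females against controls, and 2 were higher in intact-mated than in vasectomized-mated females. Il1rn, the interleukin-1 receptor antagonist, had a log2 fold-change of 1.25 in intact-mated females against controls (SE 0.18, adjusted p = 0.000725) and of 0.89 against vasectomized-mated females (adjusted p = 0.0253, and above 0.05 in 5 of 12 cases with 1 array left out). Il1r2, the interleukin-1 decoy receptor, had 0.84 (SE 0.15, adjusted p = 0.00298) and 0.92 (adjusted p = 0.0118). Csf2, the cytokine GM-CSF, which uterine epithelium also makes, rose by 0.69 in intact-mated females against controls (SE 0.11, adjusted p = 0.00193). Il1rn and Il1r2 are also neutrophil genes, and Il1r2 was one of the 15 neutrophil markers measured. Of those markers 5 were higher in intact-mated females against controls and 5 against vasectomized-mated females, with 0 called in vasectomized-mated females against controls, and the plain model called 2 against vasectomized-mated females. Their summed signal was 15397 to 16437 in intact-mated pools, 14451 to 15082 in vasectomized-mated pools and 10753 to 12512 in controls, and 13 of the 15 were dim. Ltf, lactoferrin, which uterine epithelium also makes, held 77.1% to 88.5% of this sum on every array. Without it the sum was 1920 to 2422 in intact-mated pools, 1716 to 2140 in vasectomized-mated pools and 1507 to 2458 in controls, which overlap. The 5 called markers were Il1r2, Cxcr2, S100a9, Csf3r and Trem1, all dim, and 0 were called lower. In intact-mated females against controls, Cxcr2 rose by 2.25, S100a9 by 1.43, Csf3r by 1.14 and Trem1 by 0.87 on the log2 scale. Against vasectomized-mated females they were higher by 1.92, 1.17, 1.08 and 0.81. The marker Ly6g, which was not called, had log2 fold-changes of -0.44 in intact-mated females against controls (adjusted p = 0.330) and -0.27 against vasectomized-mated females (adjusted p = 0.633). The part of neutrophils in the lymphocyte lists was not tested.

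Of 22 measured T helper regulators 1 rose and 3 fell in intact-mated females against controls, and 1 fell in vasectomized-mated females against controls. Gata3, a master regulator of type 2 helper T cells that epithelium also expresses, had 7.64, 7.66, 7.74 and 7.57 in intact-mated pools, 7.09, 7.22, 7.20 and 7.38 in vasectomized-mated pools, and 6.80, 6.62, 6.83 and 6.72 in controls. The 3 groups stood in steps without overlap, and Gata3 rose by 0.91 in intact-mated females against controls (SE 0.07, adjusted p = 1.38e-05). Stat5a, which relays interleukin-2 and prolactin signals, fell by 1.05 in intact-mated females (SE 0.11, adjusted p = 8.59e-05) and by 0.84 in vasectomized-mated females (adjusted p = 0.00182). Its neighbour and relative Stat5b fell by 0.61 and Zbtb16, the factor PLZF of innate-like T cells and of progesterone-responsive stroma, by 1.2 in intact-mated females against controls (adjusted p = 0.000386 and 0.00862). Stromal markers moved in the same comparison. Of the 11 measured, 2 fell in intact-mated females against controls, Col1a1 by 0.75 and Lum by 0.97 on the log2 scale, 8 had an unadjusted p under 0.05, and the median log2 fold-change was -0.60, against -0.35 with 0 called in vasectomized-mated females. The plain model called 1 of the 11, Lum. Summed stromal signal was 7581 to 13321 in intact-mated pools. That range holds control arrays 3 and 4 (11483 and 11383) but not control arrays 1 and 2 (21034 and 18401). The part of stromal cells in the values of these lists was not tested. Against control arrays 1 and 2 alone Maf and S1pr1 were also called lower in intact-mated females (-1.09, adjusted p = 0.0231 for Maf, and adjusted p = 0.0107 for S1pr1).

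Calls were also made among homing genes, the chemokines, adhesion molecules and receptors by which T and NK cells enter tissue. Other leukocytes use some of them too. Of 34 measured homing genes 9 rose in intact-mated females and 3 in vasectomized-mated females against controls, 1 was higher in intact-mated than in vasectomized-mated females, and 0 fell. Cxcl10, a ligand of the receptor CXCR3 of activated T and NK cells, had 9.07, 9.48, 8.83 and 9.55 in intact-mated pools, 9.45, 7.54, 8.40 and 8.56 in vasectomized-mated pools, and 7.55, 7.58, 6.41 and 6.30 in controls. All intact-mated pools were above all controls, whereas vasectomized-mated array 2 lay among the controls, and the log2 fold-change was 2.27 in intact-mated females (SE 0.39, adjusted p = 0.00268) and 1.53 in vasectomized-mated females (adjusted p = 0.0483). Icam1, the adhesion ligand of the integrin LFA-1, rose by 1.77 in intact-mated females (SE 0.21, adjusted p = 0.000225) and by 1.17 in vasectomized-mated females (adjusted p = 0.0104), and Cxcl16, the ligand of CXCR6, by 1.28 and 0.68 (adjusted p = 0.000183 and 0.0258). In vasectomized-mated females the calls of Cxcl10 and Cxcl16 were not stable. With 1 array left out, Cxcl10 lost its call in 9 of 12 cases (adjusted p between 0.0246 and 0.127) and Cxcl16 in 5 of 12 (adjusted p between 0.0122 and 0.0778). Icam1 kept its call in each of these cases. In intact-mated females Ccl28 (0.88, adjusted p = 0.00368), Ccl20 (0.84, adjusted p = 0.00195) and the chemokine receptor Ccr1 (0.82, adjusted p = 0.00191) also rose, with Cxcr4, Ccl22 and Cx3cl1 between 0.66 and 0.75. Ccr1 was the gene called between the mated groups (0.59, adjusted p = 0.0428), a call lost in 8 of 12 cases with 1 array left out, and myeloid cells carry it too.

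Of 32 measured ligands of costimulation, checkpoint and NK cell receptors 6 rose in intact-mated females and 2 in vasectomized-mated females against controls, with 0 lower and 0 called between the mated groups. In intact-mated females Cd40, the receptor through which T cells activate antigen-presenting cells, rose by 1.01 (SE 0.12, adjusted p = 0.000196), Cd274, the checkpoint ligand PD-L1, by 0.97 (SE 0.11, adjusted p = 0.000131), Pvr, a ligand of TIGIT and CD226, by 0.91 (adjusted p = 8.36e-05), Tnfsf9, the ligand of the receptor that Tnfrsf9 encodes, by 0.86 (adjusted p = 0.000698), and Vtcn1, the inhibitory B7 family member B7-H4, by 0.80 (adjusted p = 0.00017). Cd47, which holds off phagocytes, rose in both mated groups (0.86, adjusted p = 5.32e-05 in intact-mated, and 0.62, adjusted p = 0.00219 in vasectomized-mated females). Clec2d, a ligand of inhibitory NK cell receptors, rose in vasectomized-mated females (0.61, adjusted p = 0.00384). Of the genes called in these lists, Gpr83, Csf2, Il1r2, Gata3, Ccr1, Ccl20 and Ccl22 were dim, with means below 7.28. Which cells made the transcripts of these lists was not measured.

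Part of these calls differed between the pairs of controls. Of 40 called values of list genes against controls, 28 were also called with each pair alone, 11 were not called against control arrays 1 and 2 alone, and 1, Nfil3 in intact-mated females, was not called against control arrays 3 and 4 alone. The 11 were Tnfrsf9, Tgfb1, Ncam1, Srgn, Stat5b and Cxcr4 in intact-mated females and Cxcl10, Cxcl16, Icam1, Clec2d and Cd47 in vasectomized-mated females. Srgn had 0.38 against control arrays 1 and 2 and 1.11 against control arrays 3 and 4, Tgfb1 0.51 and 1.09, and Cxcr4 0.44 and 1.05, all in intact-mated females, and Cxcl10 had 0.92 and 2.13 in vasectomized-mated females. Among values not called against all 4 controls, those called with 1 pair were all lower for control arrays 1 and 2 (13 values). For control arrays 3 and 4 they were all higher (14 values). Those for control arrays 3 and 4 include Tgfbr1 (0.89 in intact-mated and 0.88 in vasectomized-mated females) and Vcam1 (0.83 and 0.85), and, in vasectomized-mated females, Srgn, Cxcr4, Ccl28, Vtcn1 and Pvr (0.59 to 0.82). The plain model called 1 homing gene in vasectomized-mated females against controls, and 1 cytokine or receptor gene and 0 homing genes between the mated groups.

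**Figure D4:**
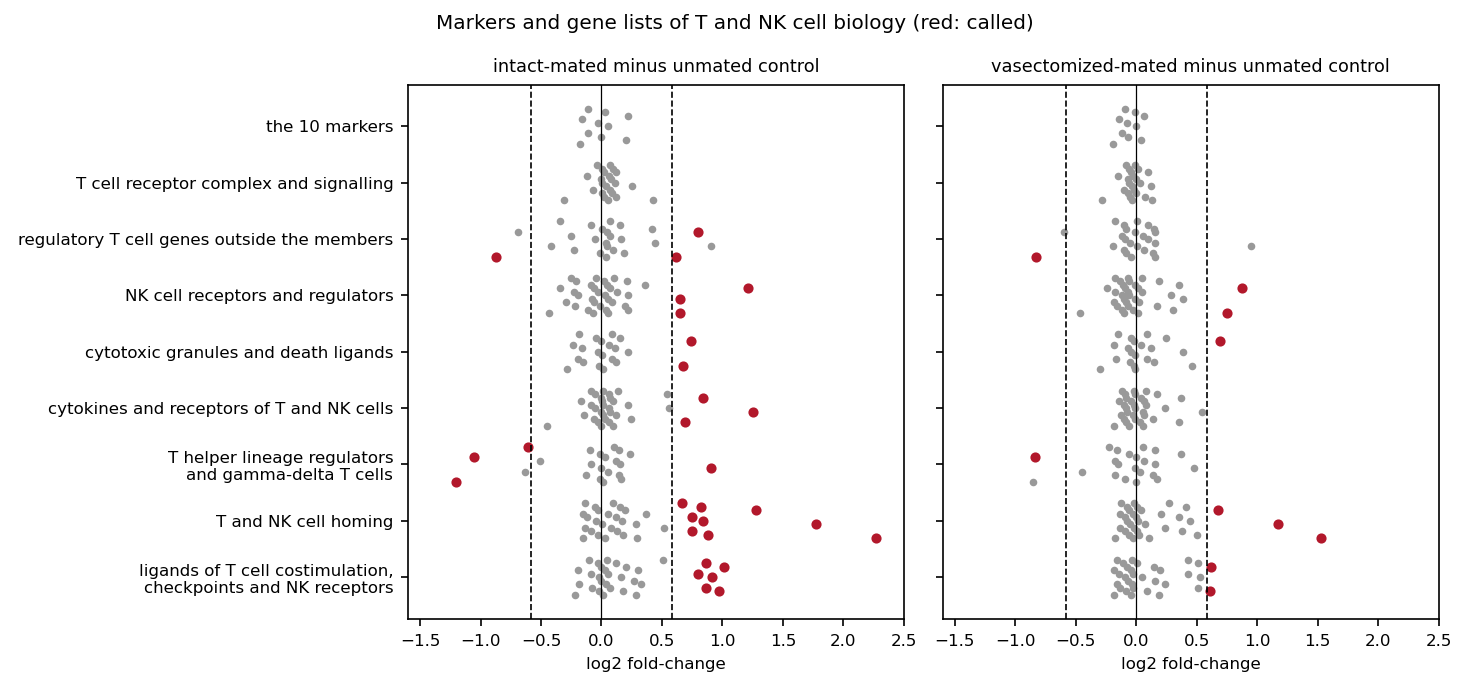
Log2 fold-change (x axis) of every measured gene in the 10-gene panel (top row) and 8 lists of T and NK cell biology (rows) in intact-mated females minus controls (left) and vasectomized-mated females minus controls (right); each point is 1 gene, spread vertically for sight, red points are called, and dashed lines mark 1.5-fold. No point of the top 2 rows is red, and of the 34 homing genes 9 are red at left and 3 at right.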

How the data were processed

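Endometrial RNA of 12 pools was read on 1-colour Affymetrix arrays, 300 ng an array. Per the study's methods, the authors used Partek Genomics Suite for RMA background correction, adjustment for probe GC content and summarization of probes by their mean. The deposited log2 values cover 35556 transcript clusters. The sources used here give neither versions nor a between-array normalization. Array medians lay between 7.25 and 7.32, and nothing was rescaled. Of the clusters, 21789 carry 1 symbol in the platform annotation, 1621 several and 12146 none, and 21698 of the first matched a RefSeq gene.

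The 3 groups were fitted together, across all clusters, in limma 3.58.1 under R 4.3.3 (residual degrees of freedom 9, prior 3.26), with Benjamini-Hochberg correction over all clusters. Calls joined an adjusted p of at most 0.05 to a fold-change of 1.5 or more, after the thresholds of the study's methods, whose ANOVA is the plain model among the alternatives. The number of arrays limits the precision. A gene with several clusters took that with the highest mean.

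The 10 genes and all lists were chosen with earlier results of these data known. All 10 are named, as are called list genes, up to 6 a list by size of log2 fold-change, the 2 largest where fewer than 2 were called, up to 3 of each marker list, and the 3 genes most like a member above the dim limit. Cxcr4, Ccl22, Cx3cl1, Clec2d, Ccr4, Lum and the genes called with 1 pair of controls only fall outside this rule and were named after their values were seen. The same holds for called neutrophil markers such as S100a9, Cxcr2 and Trem1. Code was tested on simulated data. Alternatives covered normalization, moderation, array weights, pairing, correction, dim clusters, fold thresholds, control arrays and single arrays left out.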

Additional observations from a re-analysis of the deposited data

Results flagged for a closer look

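Values are log2 fold-changes of intact-mated minus vasectomized-mated females, with limma's adjusted p, for genes in which the effect of mating differed between the mated groups. Among the 10 genes this held for Cd3e, at 0.27 (adjusted p = 0.0458). Among called list genes it held for Tnfrsf9 at 0.47 (adjusted p = 0.0142), Itga2 at 0.46 (adjusted p = 0.0192), Il1rn at 0.89 (adjusted p = 0.0253), Il1r2 at 0.92 (adjusted p = 0.0118), Gata3 at 0.43 (adjusted p = 0.0156), Ccr1 at 0.59 (adjusted p = 0.0428), Cd40 at 0.58 (adjusted p = 0.0287) and Cd274 at 0.55 (adjusted p = 0.0258). All 9 were higher in intact-mated females, and of them Il1rn, Il1r2 and Ccr1 also passed the 1.5-fold threshold. The list genes among them had all been called higher in intact-mated females against controls. Both comparisons use the same intact-mated arrays, so that the shared direction partly follows from that choice. The search covered 39 genes. Beyond the 10 genes, these were list genes named for being called or for a large fold-change in the same arrays. That choice raises their count, which therefore cannot be set against the share over all clusters. That share was 2.34% with an adjusted p of at most 0.05 in this comparison.

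A single array stood apart within its group: Nfil3 had 8.73 in unmated control array 3, with the other controls at 8.26 to 8.34. It was 1 of 117 groups of 4 arrays examined, of which chance alone would set apart about 1 in 20. None of the 30 groups of the 10 genes had such an array.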

How the results depend on the processing

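No alternative called any of the 10 genes in the comparisons with controls or lower in intact-mated than in vasectomized-mated females. Cd3e made the count of genes called higher there 1 with no fold threshold and with a fold-change of at least 1.2. Its adjusted p was 0.0619 with trend and robust moderation and 0.0883 with the replicate block, ran from 0.0364 to 0.135 with 1 array left out, and from 0.0178 to 0.0883 over the other alternatives. The cause was not tested. Of the 30 log2 fold-changes of the 10 genes, 13 turned sign somewhere, none over 0.18 in size. With control arrays 1 and 2 only, values against controls turned to 0.11 for Foxp3, 0.076 for Ctla4 and -0.089 for Prf1 in intact-mated females, and to 0.084 for Cd3d, 0.0044 for Cd8a, 0.075 for Ctla4 and -0.079 for Prf1 in vasectomized-mated females. With control arrays 3 and 4 only they turned to -0.030 for Cd8a and 0.026 for Ncr1 in intact-mated and 0.11 for Ncr1 in vasectomized-mated females. Ctla4 turned to 0.015 with median centring and 0.0084 with array weights in intact-mated females and to 0.0079 with array weights in vasectomized-mated females, and Prf1 between the mated groups to 0.014 with quantile normalization and 0.016 with median centring. Leaving out 1 array, values in intact-mated females against controls ran from -0.11 to 0.047 for Foxp3, -0.015 to 0.10 for Cd8a, -0.057 to 0.062 for Ctla4 and -0.011 to 0.11 for Prf1, those in vasectomized-mated females from -0.073 to 0.032 for Cd3d, -0.048 to 0.061 for Ctla4, -0.21 to 0.0067 for Ncr1 and -0.0013 to 0.12 for Prf1, and those between mated groups from -0.057 to 0.051 for Cd3g, -0.056 to 0.055 for Ctla4 and -0.063 to 0.032 for Prf1. The 39 called values of list genes named by rule gave 1044 values under alternatives, of which 985 passed as before, 59 (from 12 genes' comparisons) no longer passed and 0 turned sign. Counts of called list genes moved with the alternatives, from 2 to between 0 and 4 for regulatory T cell genes higher in intact-mated females, from 1 to as many as 4 for those lower, from 0 to as many as 4 for NK cell genes lower in intact-mated females, from 3 to between 0 and 6 for homing genes and from 2 to between 0 and 5 for costimulation ligands higher in vasectomized-mated females, from 1 to between 0 and 2 for homing genes between mated groups, and from 0 to as many as 2 for regulatory T cell genes and for costimulation ligands higher in intact-mated than in vasectomized-mated females. Of the 48 such counts 25 moved under an alternative, 16 of them by no more than 1 gene. Both counts of 4 lower came with control arrays 1 and 2 only. With 1 array left out, Cd47 lost its call in vasectomized-mated females in 3 of 12 cases, and Srgn, Stat5b and Ncam1 theirs in intact-mated females in 2, 2 and 1. Same-numbered arrays had correlations of deviations from -0.255 to 0.205, over 0.1 in 2 of 12 pairs, against -0.218 to 0.270 in other pairs. Of the 12 arrays 3 correlated best with their own number. These values show no pairing by number, but with 4 arrays a group they cannot tell whether same-numbered arrays shared a processing step. The replicate block gave 678 higher and 547 lower calls in intact-mated females against controls, 306 and 126 in vasectomized-mated females against controls, and 101 and 97 between mated groups, against 692 and 550, 351 and 156, and 140 and 143 without it, and called 0 of the 10 genes. Leaving out dim clusters removed 9 of the 10 genes, and averaging all rows of a gene changed nothing, since each has 1. Of the 10 genes 9 lay below the midpoint of array signal, and background was not measured.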

Other observations

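Further NK cell genes were looked at in the control arrays after the values of Ncr1 had been seen, and none of the 3 was called against all 4 controls. Klrd1, the CD94 receptor chain, had log2 signals of 6.11 and 6.0001 in control arrays 1 and 2 and of 5.31 and 5.33 in control arrays 3 and 4. Il2rb, the beta chain of the interleukin-2 and interleukin-15 receptors, had 7.79 and 7.21 in control arrays 1 and 2 and 6.41 and 6.60 in control arrays 3 and 4. Gzmb, the protease granzyme B, had 7.13 and 6.55 in control arrays 1 and 2 and 6.01 and 5.98 in control arrays 3 and 4. All 3 were thus higher in the pair of controls that had more stromal signal, as Ncr1 was. They were picked, with their values known, from 35 NK cell and 21 cytotoxic granule genes. Nfil3, on the NK cell list, had its top control value in array 3 (8.73, others 8.26 to 8.34). Other marker sums parted too, with endothelium at 2554 and 2493 against 1464 and 1460. Epithelium went the other way, at 38367 and 38953 against 41824 and 41132. Cd3e did not follow this order, with 7.35 and 7.26 in control arrays 1 and 2 and 7.42 and 7.36 in control arrays 3 and 4. The labels give no reason to part the 4 controls, and why these values differ was not tested.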
